A study of Ailuropoda melanoleuca with 25 samples.

Results

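The gene models with a very long coding sequence are those whose deposited length is 9000 bases or more, 67 of the 22924 gene models of the giant panda (Ailuropoda melanoleuca) annotation that the files use. Length does not depend on any measured level, so the choice of models used no expression value. They are set beside the 9861 models of 1000 to 3000 bases. The study turned primary fibroblasts (PF) into giant panda induced pluripotent stem cells (GPiPSCs) with episomal vectors that do not integrate into the genome, and sequenced RNA from 25 libraries. The labels name 12 groups: XR GPiPSCs, LB GPiPSCs, BACL LB GPiPSCs, BACL-CHIR99021, BACL control, stage I D8, A83-01 D16, control D16, stage I D24, stage II D8, LB PF and XR PF. LB GPiPSCs had 3 libraries and every other group 2. A83-01 inhibits the type I receptors of the TGF-β family, and CHIR99021 inhibits the kinase GSK3. The labels do not explain LB, XR or BACL, state no vector contents, and give primary fibroblast cells as the source of every library. Total estimated counts per library ran from 8627983 to 14890260, with a median of 12922860. Whether replicates came from separate cultures is not stated, so the p-values rest on a spread between libraries that may be technical only.

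Most mammalian messenger RNAs encode proteins far shorter than these. The longest coding sequences of mammals include those of giant proteins of the cytoskeleton and of muscle, the heavy chains of dynein motors, large extracellular matrix and cell adhesion proteins, large membrane receptors, and large enzymes that attach ubiquitin or modify chromatin. Such proteins are found in fibroblasts, in stem cells and in specialised tissues, and no single function unites them. No gene name accompanies the identifiers in the files, and 0 of the models occur in the RefSeq gene table at hand (assembly ASM200744v3). The models are therefore given by identifier, without a gene name or role, and the fibroblast and stem cell labels could not be checked against marker genes.

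The 67 long models had a median length of 11103 bases, against 1536 bases for the 9861 models of 1000 to 3000 bases. Of their lengths 86.6% are multiples of 3, as a coding sequence without untranslated regions would be, against 94.1% of the models of 1000 to 3000 bases. They lie on 18 of the 21 scaffolds named HIC_ASM, with 9 on HIC_ASM_1 and 8 on HIC_ASM_3, and 0 on the scaffolds named ORI. One model, evm.model.HIC_ASM_6.906_evm.model.HIC_ASM_6.907, has an identifier that joins a pair of neighbouring models. The models nearest to the length threshold were evm.model.HIC_ASM_11.829 (9011 bases) and evm.model.HIC_ASM_0.735 (9024 bases) on the inside, with means over the libraries of 126 and 0.0139 CPM. On the outside were evm.model.HIC_ASM_8.1452 (8985 bases) and evm.model.HIC_ASM_13.1432 (8970 bases), with means of 147 and 37.7 CPM. CPM values are estimated counts scaled to a common library size after TMM normalization. Neighbours in length thus differed widely in level on either side of the threshold.

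Enough counts to be tested were present for 57 of the 67 long models (85.1%), for 8388 of the 9861 models of 1000 to 3000 bases (85.1%) and for 17225 of all 22924 (75.1%). The other 10 long models had between 1 and 92 counts in the 25 libraries together, and at most 38 in a single library. They include the longest model of all, evm.model.HIC_ASM_1.436 (21303 bases), of whose 78 counts 38 lay in LB GPiPSCs replicate 3. No statement about change covers these 10 models. Of the tested models 43 averaged 10 CPM or more, 21 averaged 100 CPM or more and 6 averaged under 1 CPM. Per length, long models were less abundant than the others. Their median of mean TPM (the unit that divides counts by effective length before scaling) was 3.70, against 8.07 for tested models of 1000 to 3000 bases and 9.44 for all tested models. Their median mean count was 837, against 264 and 194, because a long model collects more reads at the same abundance.

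The share of each library's estimated counts that fell on long models had its highest group means in fibroblasts and its lowest in stage II D8. It averaged 0.552% ± 0.0539 in stage I D8, 0.885% ± 0.30 in A83-01 D16, 1.15% ± 0.0399 in control D16, 0.497% ± 0.254 in stage I D24 and 0.425% ± 0.00296 in stage II D8 (SD, n = 2 each). In GPiPSCs it averaged 0.806% ± 0.110 (LB, SD, n = 3), 0.790% ± 0.0314 (XR, n = 2) and 0.666% ± 0.00197 (BACL LB, n = 2), with 0.846% ± 0.000332 in BACL-CHIR99021 and 0.564% ± 0.0155 in BACL control (n = 2 each). In fibroblasts it averaged 2.03% ± 0.103 (LB PF) and 1.41% ± 0.666 (XR PF, SD, n = 2 each). The order at the low end depended on the total used. With TMM-scaled totals, stage II D8 averaged 0.604%, above BACL control (0.481%), BACL LB GPiPSCs (0.536%) and stage I D24 (0.546%). Stage I D8 then averaged 0.837%, above LB GPiPSCs (0.612%) and XR GPiPSCs (0.635%). Fibroblasts kept the highest means, at 2.08% ± 0.163 (LB PF) and 1.73% ± 0.612 (XR PF, SD, n = 2 each). XR PF replicate 2 was at 1.29%, beside 1.22% and 1.30% in control D16. In bulk libraries, fewer cells of a type and less RNA per cell cannot be told apart. The exact 95% Clopper-Pearson interval of a library's share reached at most 0.0096 percentage points to either side, which covers counting error only. Differences between replicates were often far wider than that.

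One model made up much of the fibroblast share. The model evm.model.HIC_ASM_15.1231 (17742 bases) held 43.6% and 65.5% of the long-model counts in the LB PF libraries and 42.1% and 38.1% in the XR PF libraries. Without it, LB PF averaged 0.923% ± 0.266 and XR PF 0.839% ± 0.364 (SD, n = 2 each). On the same measure control D16 was at 0.900% ± 0.0301, LB GPiPSCs at 0.805% ± 0.109 (n = 3) and XR GPiPSCs at 0.784% ± 0.0309. LB PF still had the highest mean of the 12 groups, by less than its own SD. The lowest mean was then that of stage I D24 at 0.383% ± 0.171, next to 0.395% ± 0.00193 in stage II D8. The share thus describes a few abundant models more than the set.

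A measure that weights each tested model equally gave another picture. For each library, the median deviation of log2 CPM from the mean of the 12 group means was taken over long models and over models of 1000 to 3000 bases, and the second was subtracted from the first. This long-model shift was -0.59 ± 0.22 in stage I D8, -0.38 ± 0.27 in stage I D24 and -0.78 ± 0.13 in stage II D8 (SD, n = 2 each). It was 0.15 ± 0.36 in A83-01 D16 and 0.25 ± 0.10 in control D16. In the BACL groups it lay between -0.06 and 0.17 in each of the 6 libraries. It was 0.35 ± 0.13 in XR GPiPSCs and 0.21 ± 0.20 in LB GPiPSCs (n = 3), against 0.38 ± 0.06 in LB PF. The pooled SD within groups was 0.304 on 13 degrees of freedom. All 6 libraries of the stages were below 0, at -0.87 to -0.19, and the lowest of the other 19 were XR PF replicate 2 (-0.68) and A83-01 D16 replicate 2 (-0.11). In stage I D8 the drop grew with length from 3000 to under 12000 bases. Median deviations were -0.55 and -0.34 at 3000 to under 6000 bases (replicates 1, 2) and -0.78 and -0.47 at 6000 to under 9000. At 9000 to under 12000 they were -1.09 and -0.57. Models of 12000 bases or more were at -0.09 and -0.06, like those of 1000 to under 3000 (-0.11 and -0.06). In stage II D8 they were at -0.20 and -0.999, against -0.73 and -0.77 at 9000 to under 12000. In stage I D24 they were at -0.38 and -0.23, against -0.74 and -0.06. In BACL LB GPiPSCs they were at -0.43 and -0.50, against 0.36 and 0.19.

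**Figure D1:**
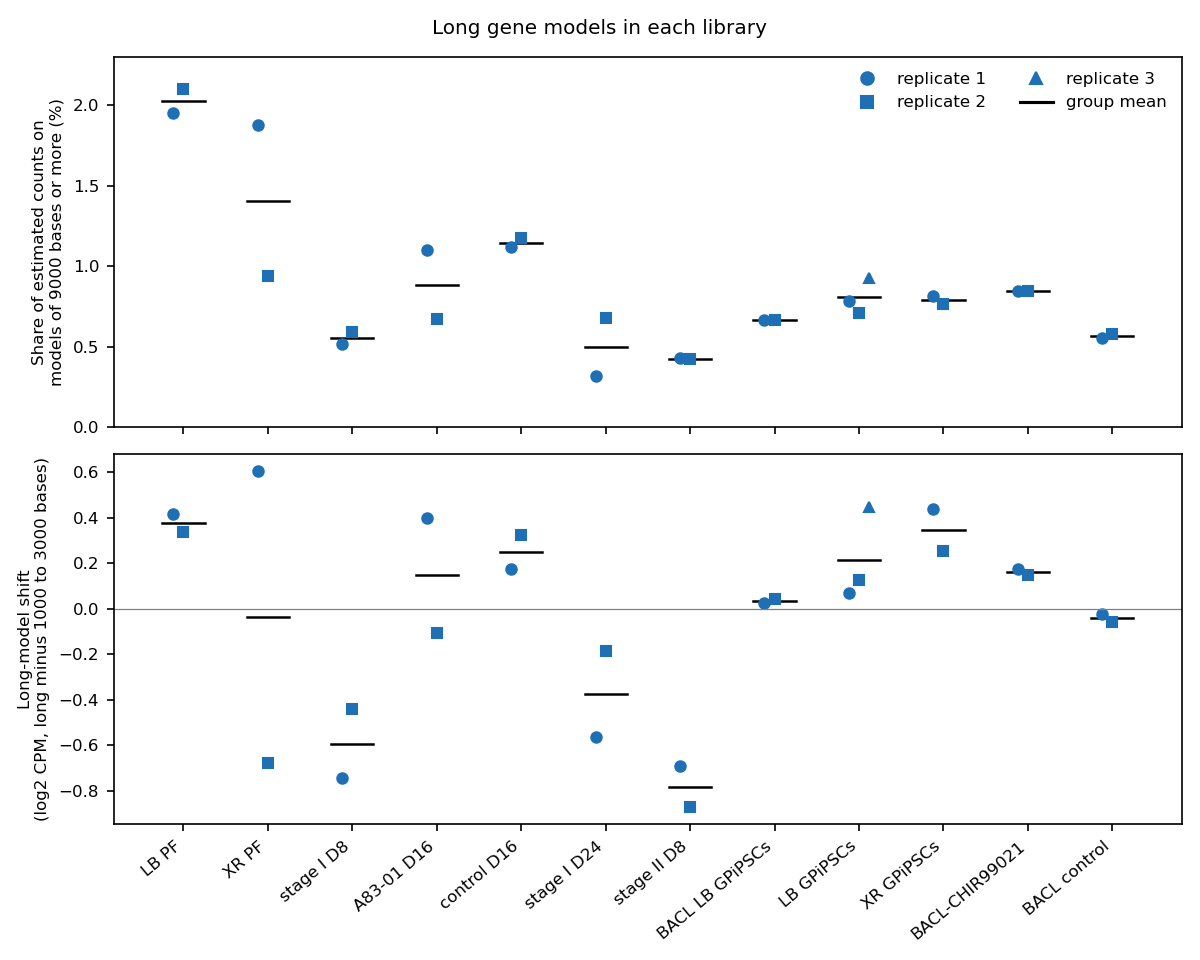
Each point is one library, placed by group on the horizontal axis, with the group mean as a bar. The upper panel gives the share of estimated counts on models of 9000 bases or more in percent, from 0.317% to 2.10%, and the lower panel the long-model shift in log2 CPM, in which the stage libraries lie below 0 and the XR PF replicates lie at 0.61 and -0.68.

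Replicates of the same group stood apart in long models. XR PF replicate 1 had a long-model shift of 0.61 and replicate 2 of -0.68, so these libraries lay near opposite ends of all 25. Replicate 2 was below replicate 1 in 52 of the 57 tested long models. The median log2 ratio of replicate 2 over replicate 1 was 0.00 for models of 1000 to under 3000 bases, -0.45 for 3000 to under 6000, -0.73 for 6000 to under 9000, -1.16 for 9000 to under 12000 and -0.93 for 12000 bases or more. In A83-01 D16 the medians for the same lengths were -0.04, -0.31, -0.50, -0.68 and -0.72, and replicate 2 was the lower in 54 of 57 long models. In stage I D24 they ran the other way, at 0.12, 0.50, 0.76, 0.62 and 0.59, and replicate 2 was the higher in 49 of 57. Stage I D8 showed a smaller rise with length, to 0.35 at 12000 bases or more, and LB PF a dip to -0.36 at 6000 to under 9000 that was -0.12 at 12000 bases or more. LB GPiPSCs replicate 3 exceeded replicate 2 by a median of 0.35 over the long models. The BACL pairs had medians between -0.03 and 0.02 in both classes of long models. RNA integrity and extraction date are not given in the labels, and what moves with length between these replicates was not tested.

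**Figure D2:**
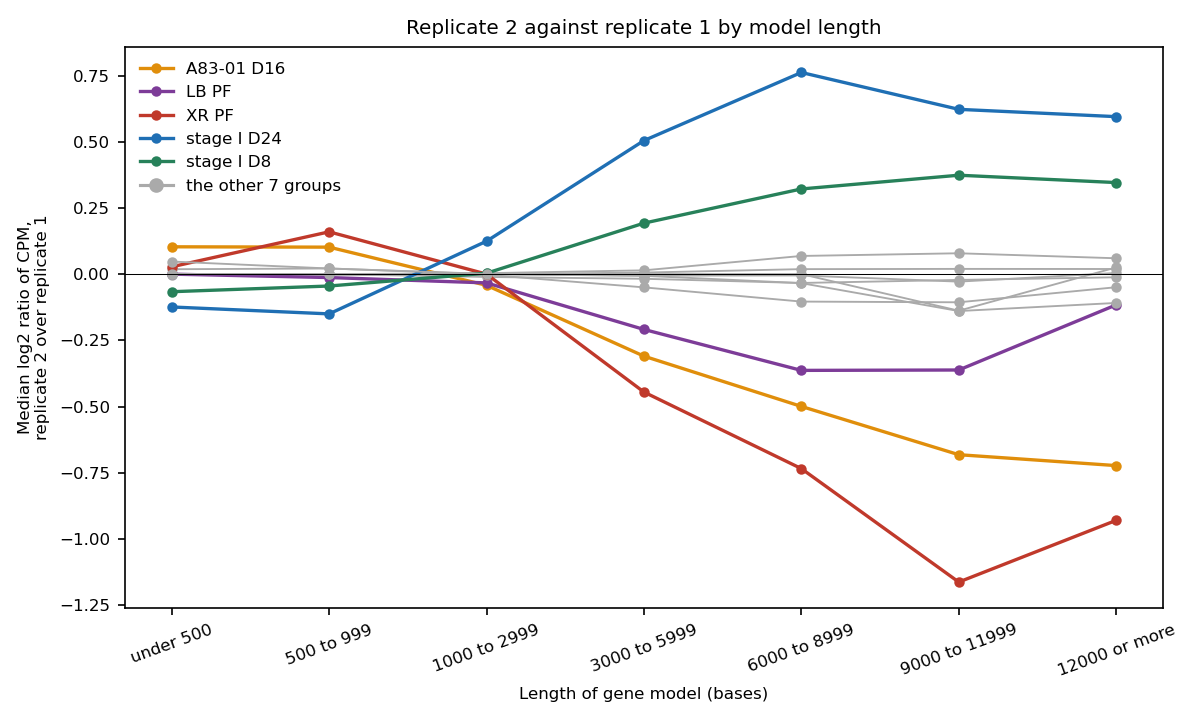
Median log2 ratio of CPM in replicate 2 over replicate 1 for tested models in 7 classes of length, 1 line per group (LB GPiPSCs: replicates 1 and 2 only). The lines for XR PF and A83-01 D16 go down with length, to -0.93 and -0.72 in models of 12000 bases or more, those for stage I D24 and stage I D8 go up, and the 7 grey lines of the other groups lie between -0.14 and 0.08 from 1000 bases upward.

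Model by model, the replicate ratios of XR PF, stage I D24 and stage I D8 were related, and that of A83-01 D16 was little related to them. Over the 57 tested long models, the ratio in XR PF and that in stage I D24 had a Pearson correlation of -0.79 (Spearman -0.75), and over the 8388 models of 1000 to 3000 bases it was -0.73. The ratios in stage I D24 and stage I D8 correlated at 0.57 over the long models, and those in XR PF and stage I D8 at -0.60. The ratio in A83-01 D16 correlated over the long models at 0.02 with XR PF, 0.08 with stage I D24 and -0.07 with stage I D8. Over models of 1000 to 3000 bases these were 0.23, -0.19 and -0.11. These pairs share no library, but the points within each share the same 4 libraries, so they are not independent. Because of this spread, the results below are also given without the replicate that decides them, and with a fit that first removed from each library the smooth trend of its log2 CPM on length. That fit was added after the data were seen. It also takes away any difference between groups that runs with length, so it is no better estimate of what the cells held. Calls in fits other than the main one have no share over all tested models beside them. Leaving out a library can change calls at any length, so those counts alone describe no trait of long models.

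Across the 12 groups, long models differed widely in how far their levels ranged. None of the 57 tested models kept its highest and lowest group mean within 2-fold, 13 spanned 2 to 4-fold, 8 spanned 4 to 8-fold, 20 spanned 8 to 32-fold and 16 more than 32-fold. The highest group mean fell in XR GPiPSCs for 13 models, in LB PF for 10 and in control D16 for 9. The lowest fell in stage II D8 for 18 models, and in stage I D8 and BACL control for 11 each. Stage II D8 also held the highest mean of 5 models. The same counts were not made for shorter models, so none of them can be called particular to long models.

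**Figure D3:**
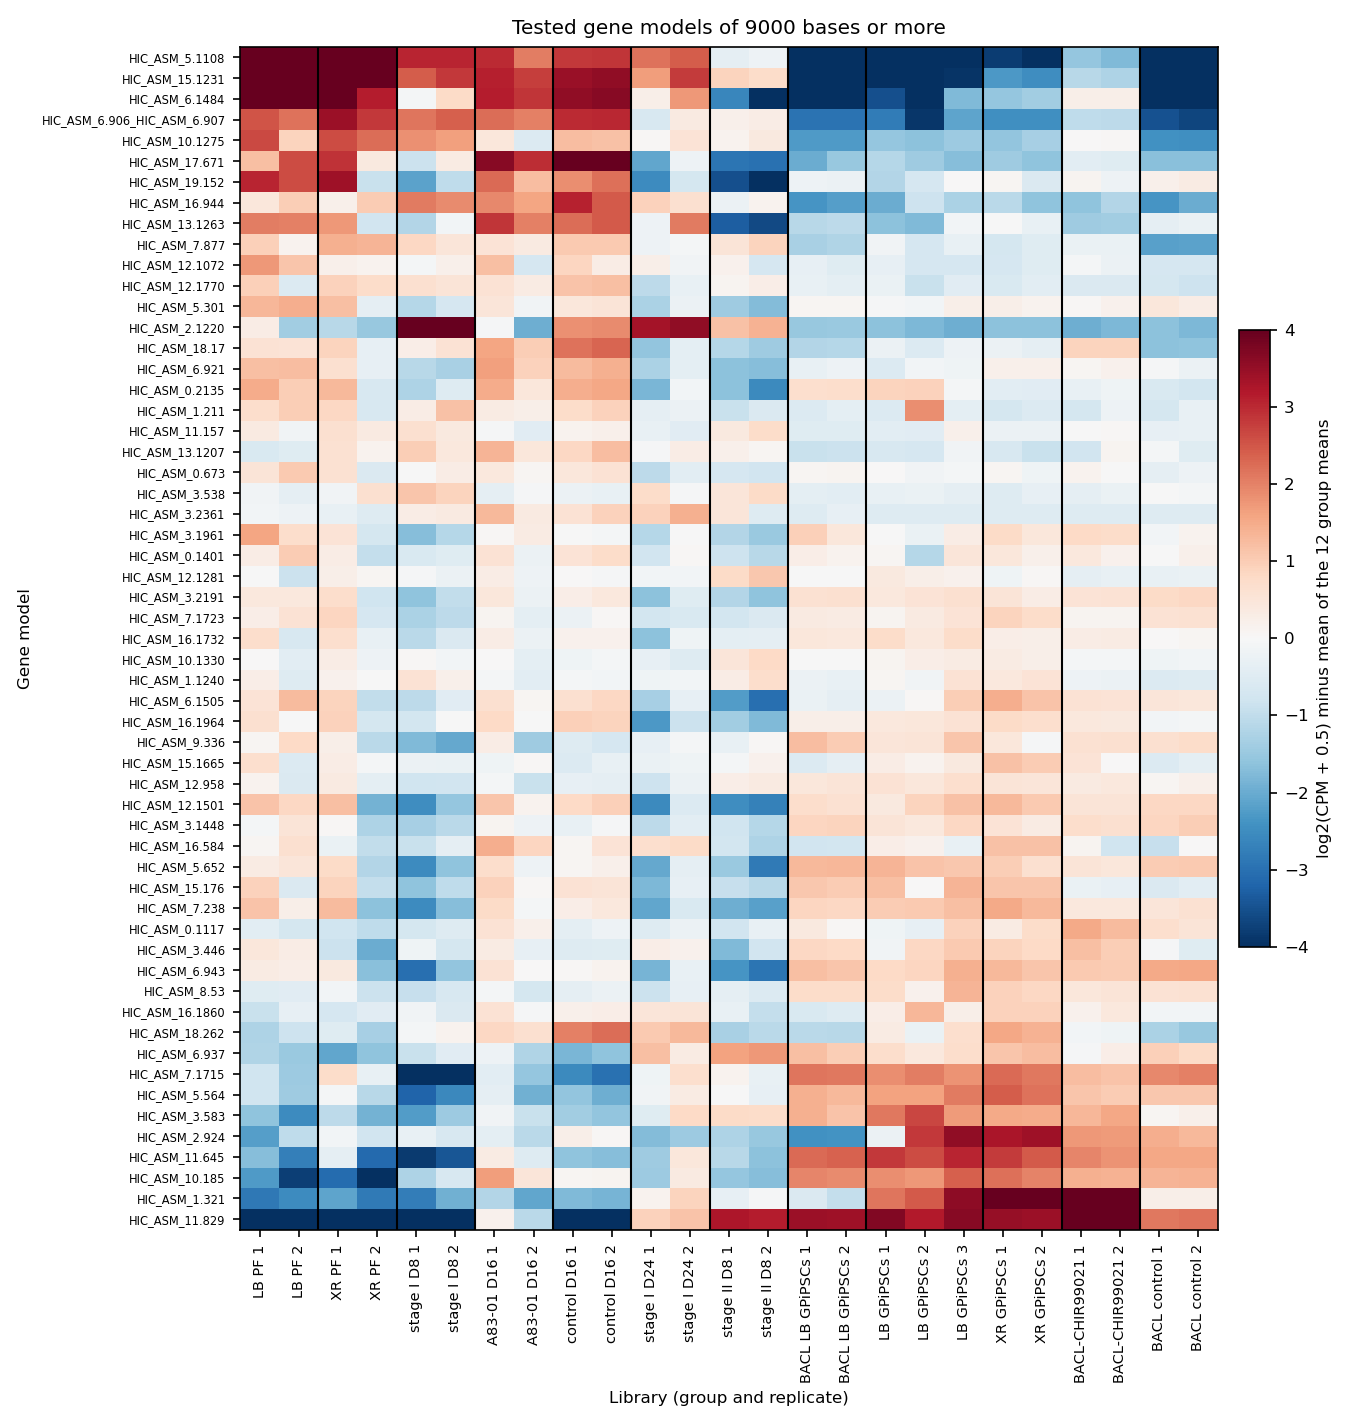
Each row is 1 of the 57 tested long models, sorted by GPiPSCs minus PF, and each column 1 library; colour gives log2(CPM + 0.5) minus the mean of the 12 group means, cut at 4 in either direction. Models at the top are red in PF and blue in GPiPSCs, those at the bottom the reverse, and in the middle the columns of stage I D8, stage II D8 and XR PF replicate 2 are bluer than their neighbours.

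The steadiest long models with a mean of at least 10 CPM were evm.model.HIC_ASM_10.1330 (15546 bases), evm.model.HIC_ASM_1.1240 (10350 bases) and evm.model.HIC_ASM_12.1281 (9846 bases). The model evm.model.HIC_ASM_10.1330 ranged from 237 CPM in stage I D24 replicate 2 to 581 CPM in stage II D8 replicate 2. For evm.model.HIC_ASM_1.1240 the lowest library, BACL control replicate 1, had 42.4 CPM and the highest, stage II D8 replicate 2, had 101 CPM. All 3 had their highest group mean in stage II D8, the group that held the lowest mean of 18 other long models.

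The most variable were evm.model.HIC_ASM_15.1231, evm.model.HIC_ASM_5.1108 (9846 bases) and evm.model.HIC_ASM_11.829. The model evm.model.HIC_ASM_5.1108 had 1156 and 570 CPM in LB PF, 855 and 548 CPM in XR PF, 182 and 180 CPM in stage I D8, 157 and 161 CPM in control D16, 98.5 and 119 CPM in stage I D24 and 16.8 and 18.5 CPM in stage II D8. In XR GPiPSCs it had 1.09 and 0.798 CPM, and in LB GPiPSCs 0, 0.125 and 0.706 CPM, from 0, 2 and 11 counts. Apart from LB PF and XR PF, these groups did not overlap, and the levels went down along the sequence of stages. The model evm.model.HIC_ASM_11.829 ran the opposite way. Here the model had at most 3 counts in each library of LB PF, XR PF, stage I D8 and control D16, 40.6 and 47.0 CPM in stage I D24, 204 and 190 CPM in stage II D8, 282, 193 and 266 CPM in LB GPiPSCs and 240 and 229 CPM in XR GPiPSCs. In fibroblasts a level up to the floor of 3 counts, 0.242 to 0.364 CPM, cannot be told from none.

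Per length, evm.model.HIC_ASM_15.1231 was the most abundant long model over the 25 libraries, with a mean of 68.4 TPM, followed by evm.model.HIC_ASM_11.157 (13812 bases, 43.1 TPM), evm.model.HIC_ASM_18.17 (13764 bases, 29.8 TPM), evm.model.HIC_ASM_10.1275 (13212 bases, 26.6 TPM) and evm.model.HIC_ASM_12.1281 (17.3 TPM). This order did not hold in every group. The model evm.model.HIC_ASM_11.157 led in XR and LB GPiPSCs, with 45.3 ± 0.709 TPM in XR GPiPSCs (SD, n = 2) and 44.6 ± 14.3 TPM in LB GPiPSCs (n = 3), where evm.model.HIC_ASM_15.1231 averaged 1.84 ± 0.111 and 0.323 ± 0.281 TPM. In control D16, evm.model.HIC_ASM_18.17 led with 109 ± 8.70 TPM, next to 98.8 ± 4.78 TPM for evm.model.HIC_ASM_15.1231 (SD, n = 2 each), a gap about as large as the spread between replicates. In XR GPiPSCs evm.model.HIC_ASM_7.1715 (9333 bases) came next, at 43.8 ± 1.5 TPM, equally within the spread. The 5 longest models were low, and only evm.model.HIC_ASM_2.924 (19280 bases) and evm.model.HIC_ASM_9.336 (19209 bases) passed 10 CPM in any library. The model evm.model.HIC_ASM_9.336 ran from 2.07 CPM in stage I D8 replicate 2 to 24.4 CPM in BACL LB GPiPSCs replicate 1. The model evm.model.HIC_ASM_12.1072 (20340 bases) had at most 26 counts in a library and evm.model.HIC_ASM_1.211 (18492 bases) at most 45. Over the 67 models, length and mean TPM had a Spearman correlation of -0.22.

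**Figure D4:**
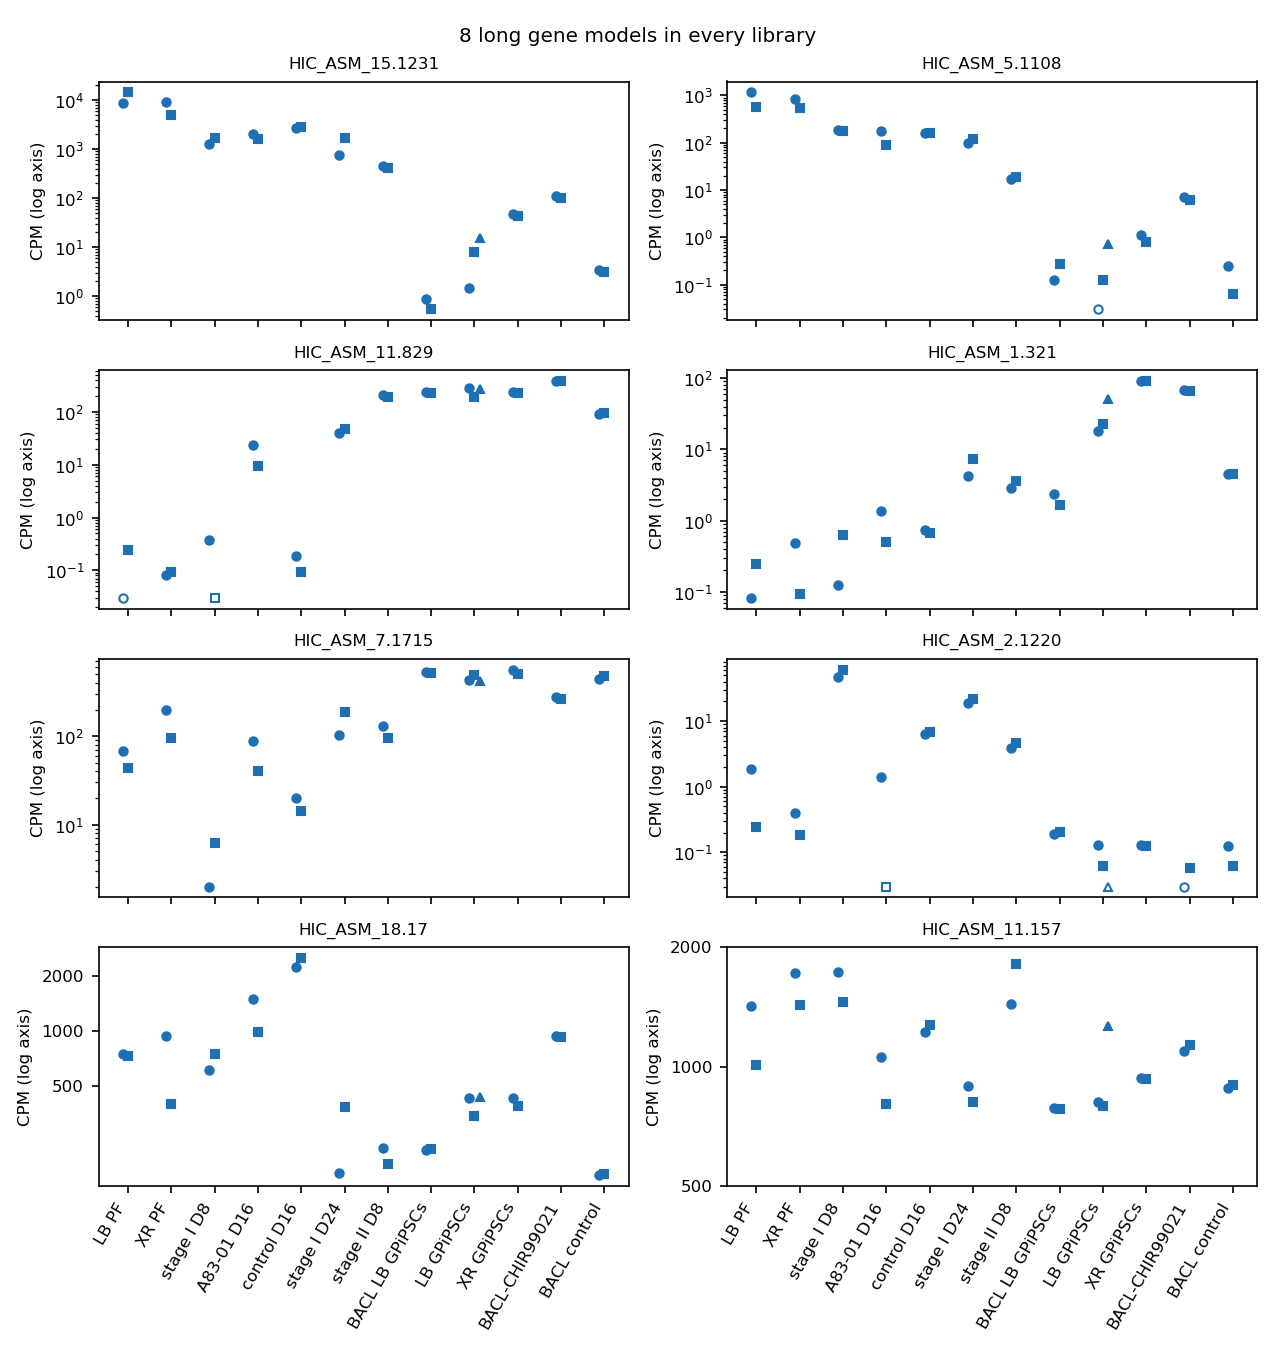
CPM on log axes of 8 long models in every library, by group (circle, square and triangle: replicates 1, 2 and 3). Values under 0.03 CPM are drawn as open points at 0.03. HIC_ASM_15.1231 and HIC_ASM_5.1108 are highest in PF, HIC_ASM_11.829 and HIC_ASM_1.321 in GPiPSCs and BACL-CHIR99021, HIC_ASM_2.1220 in stage I D8, and HIC_ASM_18.17 in control D16, while HIC_ASM_11.157 stays between 780 and 1818 CPM.

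In LB GPiPSCs against LB PF, long models went up and down about as often as other models. Of the 57 tested, 14 rose and 18 fell (24.6% and 31.6%), and among all tested models 28.5% rose and 28.9% fell, by edgeR's quasi-likelihood test at an adjusted p under 0.05. All 3 LB GPiPSC libraries exceeded both LB PF libraries in 18 long models and lay below them in 19, 31.6% and 33.3%, against 33.7% and 31.5% of all tested. The median log2 fold change was 0.05 for long models, 0.04 for models of 1000 to 3000 bases and 0.00 for all. The model evm.model.HIC_ASM_11.645 (14904 bases) had 125, 108 and 147 CPM in LB GPiPSCs, against 4.92 and 2.18 CPM in LB PF, a log2 fold change of 5.12 ± 0.70 (SE, adjusted p = 4.53e-06). The groups lay far apart, and without LB PF replicate 1 the log2 fold change was 5.86. The model evm.model.HIC_ASM_10.185 (9334 bases) had 42.0, 38.7 and 61.6 CPM in LB GPiPSCs, against 1.97 and 0.364 CPM in LB PF (adjusted p = 3.95e-06). One fibroblast library had 3 counts, so no fold is given.

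Of the models that fell in LB GPiPSCs, evm.model.HIC_ASM_15.1231 had 1.49, 8.09 and 15.4 CPM in LB GPiPSCs, against 8565 and 14365 CPM in LB PF, a log2 fold change of -10.42 ± 0.69 (adjusted p = 3.69e-10). The LB GPiPSC libraries themselves spread about 10-fold, and the log2 fold change was -11.22 without replicate 3. The model evm.model.HIC_ASM_5.1108 fell as well (adjusted p = 1.80e-11), with the values given above. On the scale of log2(TPM + 1), which no scaling for library composition enters, limma-trend called 13 higher and 10 lower, 56.5% higher against 43.8% in the edgeR fit. On that scale the median change over models of 1000 to 3000 bases was 0.18 in LB GPiPSCs, 0.25 in XR GPiPSCs, -0.29 in stage I D8, 0.44 in control D16, 0.13 in stage I D24, -0.22 in stage II D8, 0.52 in GPiPSCs against stage II D8, -0.13 in BACL LB GPiPSCs and 0.14 in BACL-CHIR99021. Changes of long models on it are to be read against these shifts.

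XR GPiPSCs against XR PF gave 17 long models that rose and 13 that fell (29.8% and 22.8%), where 27% and 28.9% of all tested models did, 55.9% together. Both XR GPiPSC libraries exceeded both XR PF libraries in 23 long models and lay below them in 15, 40.4% and 26.3%, against 38.8% and 37.1% of all tested. Long models had a median log2 fold change of 0.40, against 0.02 for models of 1000 to 3000 bases and 0.00 for all. This gap rests on 1 fibroblast library, since the difference from the shorter models was 0.38 with all libraries, -0.02 without XR PF replicate 2 and 1.15 without XR PF replicate 1. With the length trend removed, 16 rose and 20 fell, 44.4% higher against 56.7%, and with log2(TPM + 1) 18 rose and 7 fell (72.0%). The model evm.model.HIC_ASM_11.645 had 124 and 96.0 CPM in XR GPiPSCs, against 13.3 and 1.58 CPM in XR PF, a log2 fold change of 3.87 ± 0.66 (adjusted p = 6.95e-05). It was 6.11 without XR PF replicate 1 and 3.04 without replicate 2. The model evm.model.HIC_ASM_10.185 had 53.6 and 46.2 CPM in XR GPiPSCs, against 0.889 and 0 CPM in XR PF (adjusted p = 1.14e-06). The model evm.model.HIC_ASM_15.1231 had 48.4 and 43.0 CPM in XR GPiPSCs, against 9094 and 4928 CPM in XR PF, a log2 fold change of -7.26 ± 0.73 (adjusted p = 1.22e-07). For evm.model.HIC_ASM_5.1108 the log2 fold change was -9.52 ± 0.66 (adjusted p = 1.04e-09).

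No library is common to the LB and the XR comparison. Of the 14 long models that rose in LB GPiPSCs and the 17 that rose in XR GPiPSCs, 12 were in both lists, 85.7% of the first and 70.6% of the second. Of the 18 and 13 that fell, 10 were in both, 55.6% and 76.9%. Over all tested models, the shared shares were 69.6% and 73.4% of the models that rose, and 73.4% of each list of those that fell. No long model rose in one and fell in the other, and over all tested models 70 rose in LB and fell in XR GPiPSCs and 44 did the reverse. In a test of the difference itself, the LB change lay below the XR change in 3 long models and above it in 0, where 3.09% and 5.56% of all tested models did, 8.64% together. For the count of 0 in edgeR's quasi-likelihood test, 4 models passed at an unadjusted p under 0.05, and DESeq2 called 2. Of the pair of called models that met the naming rule, evm.model.HIC_ASM_15.1231 had a difference of -3.16 ± 0.77 (SE, adjusted p = 0.0158), and its libraries were lower in LB GPiPSCs than in XR GPiPSCs. In evm.model.HIC_ASM_6.921 (13881 bases) it was -1.46 ± 0.42 (adjusted p = 0.0365). These calls were not stable. Leaving out XR PF replicate 1 gave 19 calls, LB PF replicate 1 gave 8, LB GPiPSCs replicate 3 gave 7, LB GPiPSCs replicate 1 and XR GPiPSCs replicate 2 gave 1 each, and without LB PF replicate 2, XR PF replicate 2 or XR GPiPSCs replicate 1 no call was made. The difference in evm.model.HIC_ASM_15.1231 was -3.99 without LB GPiPSCs replicate 3. Its adjusted p was 0.0832 without XR PF replicate 2, 0.0633 without LB PF replicate 2 and 0.0577 without XR GPiPSCs replicate 1. That of evm.model.HIC_ASM_6.921 was between 0.0753 and 0.178 without LB GPiPSCs replicate 1, LB PF replicate 2, XR PF replicate 2 or either XR GPiPSCs library, and 0.0509 with a replicate block. With the length trend removed the split was 4 above and 5 below, 44.4% above against 0%, and DESeq2 gave 2 and 5 (28.6%).

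At stage I D8, against the mean of LB PF and XR PF, long models were mostly lower. Of the 57 tested 25 fell and 7 rose (43.9% and 12.3%), where 25.6% and 26% of all tested models did. Their median log2 fold change was -0.70, against -0.02 for models of 1000 to 3000 bases and 0.00 for all. All 4 fibroblast libraries exceeded both stage I D8 libraries in 18 long models, 31.6%, against 21.7% of all tested, and lay below both in 7, 12.3%, against 24.3%. These values moved with single libraries and with the treatment of length. The difference in medians between long models and those of 1000 to 3000 bases was -0.68 with all libraries, -1.07 without stage I D8 replicate 2 and -0.33 without XR PF replicate 1. With the length trend removed, 13 rose and 20 fell, 39.4% higher against 21.9%, and the difference in medians was 0.02. On log2(TPM + 1) 2 rose and 26 fell (7.14% higher). Fewer were called without stage I D8 replicate 1, in a fit that left 1 library in that group.

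The model evm.model.HIC_ASM_7.1715 (9333 bases) fell most among those named by the rule, with 2.00 and 6.22 CPM in stage I D8, against 67.2 and 43.2 CPM in LB PF and 196 and 96.0 CPM in XR PF. Its log2 fold change was -4.42 ± 0.48 (adjusted p = 7.66e-07), and -5.49 without stage I D8 replicate 2. The model evm.model.HIC_ASM_19.152 (11103 bases) had 4.13 and 9.65 CPM in stage I D8, against 168 and 123 CPM in LB PF and 214 and 10.5 CPM in XR PF. Its log2 fold change of -4.20 ± 0.87 (adjusted p = 0.000709) was -2.50 without XR PF replicate 1 and -4.95 without stage I D8 replicate 2. XR PF replicate 2 lay close to stage I D8 in this model.

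Of the 7 that rose, evm.model.HIC_ASM_2.1220 (13017 bases) had 46.8 and 61.4 CPM in stage I D8, against 1.89 and 0.242 CPM in LB PF and 0.404 and 0.186 CPM in XR PF (adjusted p = 1.09e-07). The fibroblast values rest on 23, 2, 5 and 2 counts. The model was highest in stage I D8, with 19 and 22.2 CPM in stage I D24, 3.86 and 4.66 CPM in stage II D8 and at most 2 counts in each LB and XR GPiPSC library. The model evm.model.HIC_ASM_16.944 (15294 bases) had 13.3 and 11.6 CPM in stage I D8, against 3.94 and 5.94 CPM in LB PF and 3.23 and 6.04 CPM in XR PF, a log2 fold change of 1.38 ± 0.37 (adjusted p = 0.00472). Without stage I D8 replicate 1 its adjusted p was 0.0533.

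Control D16 against stage I D8 gave the reverse. In control D16 25 long models rose and 3 fell (43.9% and 5.26%), where 23% and 20.2% of all tested models did, and the median log2 fold change was 0.98, against 0.10 for models of 1000 to 3000 bases and 0.05 for all. Both control D16 libraries exceeded both stage I D8 libraries in 42 long models, 73.7%, against 42.4% of all tested, and lay below them in 8, 14.0%, against 38.9%. These counts, and those at stage I D8, share the stage I D8 libraries and are not independent of each other. Fewer long models were called without stage I D8 replicate 1, and fewer without control D16 replicate 2. Each of these fits left 1 library in that group, and its share over all tested models is not given. The difference in medians of 0.88 lay between 0.79 and 1.14 with 1 library left out. Models of 6000 to under 9000 bases differed in the same direction. Their median deviations were 0.29 and 0.42 in control D16, against -0.78 and -0.47 in stage I D8. With the length trend removed, 13 rose and 11 fell, 54.2% higher against 89.3%, and the difference in medians was -0.00.

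The model evm.model.HIC_ASM_17.671 (9144 bases) had 462 and 562 CPM in control D16, against 13.5 and 31.5 CPM in stage I D8, a log2 fold change of 4.50 ± 0.71 (adjusted p = 0.000215) and 5.25 without stage I D8 replicate 2. Control D16 was its highest group. The model evm.model.HIC_ASM_19.152 had 73.7 and 93.6 CPM in control D16, against 4.13 and 9.65 CPM in stage I D8, a log2 fold change of 3.59 ± 0.89 (adjusted p = 0.00466). Its adjusted p was 0.0750 without stage I D8 replicate 1, and its log2 fold change 4.34 without replicate 2. Of those that fell, evm.model.HIC_ASM_2.1220 had 6.49 and 6.80 CPM in control D16, against 46.8 and 61.4 CPM in stage I D8, a log2 fold change of -3.02 ± 0.63 (adjusted p = 0.00177). The model evm.model.HIC_ASM_3.538 (13863 bases) had 130 and 125 CPM in control D16, against 335 and 283 CPM in stage I D8, a log2 fold change of -1.28 ± 0.26 (adjusted p = 0.00135).

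Stage I D24 against stage I D8 gave 11 long models that rose and 8 that fell (19.3% and 14.0%), where 18.6% and 13.9% of all tested models did. Both stage I D24 libraries exceeded both stage I D8 libraries in 17 long models and lay below them in 17, 29.8% each, against 31.3% and 26.2% of all tested. The median was 0.25 for long models, 0.16 for models of 1000 to 3000 bases and 0.15 for all. The difference of 0.08 between the first of these was 0.52 without stage I D24 replicate 1 and -0.24 without replicate 2. The model evm.model.HIC_ASM_7.1715 had 104 and 188 CPM in stage I D24, against 2.00 and 6.22 CPM in stage I D8, a log2 fold change of 5.12 ± 0.51 (adjusted p = 4.63e-07), 6.19 without stage I D8 replicate 2 and 4.53 without stage I D24 replicate 2. The model evm.model.HIC_ASM_11.645 had 6.11 and 23.9 CPM in stage I D24, against 0.751 and 1.14 CPM in stage I D8, a log2 fold change of 3.97 ± 0.79 (adjusted p = 0.000699). It was 2.56 without stage I D24 replicate 2 and 4.63 without replicate 1. The joined model evm.model.HIC_ASM_6.906_evm.model.HIC_ASM_6.907 (9105 bases) had 58.7 and 120 CPM in stage I D24, against 408 and 483 CPM in stage I D8, a log2 fold change of -2.32 ± 0.40 (adjusted p = 0.000190), and -3.02 without stage I D24 replicate 2. The model evm.model.HIC_ASM_10.1275 had 476 and 682 CPM in stage I D24, against 1626 and 1454 CPM in stage I D8, a log2 fold change of -1.41 ± 0.38 (adjusted p = 0.00797), with an adjusted p of 0.0662 without stage I D24 replicate 1. Without stage I D8 replicate 1, 7 rose and 5 fell, and log2(TPM + 0.1) gave 7 and 3, 70.0% higher against 57.9%.

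In stage II D8 against stage I D24, 6 long models rose and 14 fell (10.5% and 24.6%), where 12.7% and 19% of all tested models did. Both stage II D8 libraries exceeded both stage I D24 libraries in 10 long models and lay below them in 22, 17.5% and 38.6%, against 28.4% and 32.8% of all tested. For long models the median log2 fold change was -0.48, against -0.17 for models of 1000 to 3000 bases and -0.15 for all. The difference in medians of -0.31 was 0.01 without stage I D24 replicate 2 and -0.62 without replicate 1. Without stage II D8 replicate 2, 2 rose and 5 fell, without stage II D8 replicate 1, 5 and 8, and log2(TPM + 1) gave 1 and 5, 16.7% higher against 30.0%. The model evm.model.HIC_ASM_11.829 had 204 and 190 CPM in stage II D8, against 40.6 and 47.0 CPM in stage I D24, a log2 fold change of 2.17 ± 0.37 (adjusted p = 0.000339). The model evm.model.HIC_ASM_10.1330 had 474 and 581 CPM in stage II D8, against 270 and 237 CPM in stage I D24, a log2 fold change of 1.06 ± 0.21 (adjusted p = 0.00137).

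Of the 14 that fell at stage II D8, evm.model.HIC_ASM_13.1263 (9969 bases) had 1.09 and 0.758 CPM in stage II D8, against 12.9 and 64.4 CPM in stage I D24, a log2 fold change of -5.37 ± 0.91 (adjusted p = 0.000339). It was -3.74 without stage I D24 replicate 2 and -6.10 without replicate 1. The model evm.model.HIC_ASM_6.1484 (9774 bases) had 2.58 and 0.650 CPM in stage II D8, against 21.7 and 63.0 CPM in stage I D24, a log2 fold change of -4.69 ± 0.78 (adjusted p = 0.000291). It was -3.68 without stage I D24 replicate 2, -6.01 without stage II D8 replicate 1 and -4.04 without stage II D8 replicate 2. Replicate 2 of stage I D24 was the higher in both models, as it was in 49 of 57 long models.

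Set against stage II D8, the mean of LB and XR GPiPSCs gave the strongest shift. In GPiPSCs 33 long models rose and 14 fell (57.9% and 24.6%), 82.5% in all, where 31% and 36.3% of all tested models rose and fell and 67.3% were called. For long models the median change was 1.30, against -0.05 for models of 1000 to 3000 bases and -0.08 for all. Models just under the threshold differed in the same direction. At 6000 to under 9000 bases median deviations were 0.33, 0.32 and 0.43 in LB GPiPSCs and 0.31 and 0.32 in XR GPiPSCs. In stage II D8 they were -0.38 and -0.60, so the shift was not particular to long models. All 5 GPiPSC libraries exceeded both stage II D8 libraries in 33 long models and lay below them in 14, 57.9% and 24.6%, against 33% and 38.7% of all tested. Leaving out single libraries left between 37 and 47 calls and a difference in medians of 1.30 to 1.58. With the length trend removed, 24 rose and 20 fell, 54.5% higher against 70.2%, and the difference in medians was 0.41. On log2(TPM + 1) 35 rose and 2 fell (94.6% higher), and the median over models of 1000 to 3000 bases moved to 0.52.

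The model evm.model.HIC_ASM_2.924 had 5.96, 54.2 and 88.0 CPM in LB GPiPSCs and 72.9 and 79.9 CPM in XR GPiPSCs, against 2.77 and 2.17 CPM in stage II D8, a log2 fold change of 4.63 ± 0.75 (adjusted p = 3.40e-05). LB GPiPSCs replicate 1 lay far below the other GPiPSC libraries in this model. The model evm.model.HIC_ASM_11.645 had 125, 108 and 147 CPM in LB GPiPSCs and 124 and 96.0 CPM in XR GPiPSCs, against 7.82 and 5.20 CPM in stage II D8, a log2 fold change of 4.17 ± 0.64 (adjusted p = 2.07e-05). The model evm.model.HIC_ASM_15.1231 had 1.49, 8.09 and 15.4 CPM in LB GPiPSCs and 48.4 and 43.0 CPM in XR GPiPSCs, against 451 and 403 CPM in stage II D8, a log2 fold change of -4.45 ± 0.46 (adjusted p = 2.97e-07). The model evm.model.HIC_ASM_5.1108 fell too (adjusted p = 2.87e-08).

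**Figure D5:**
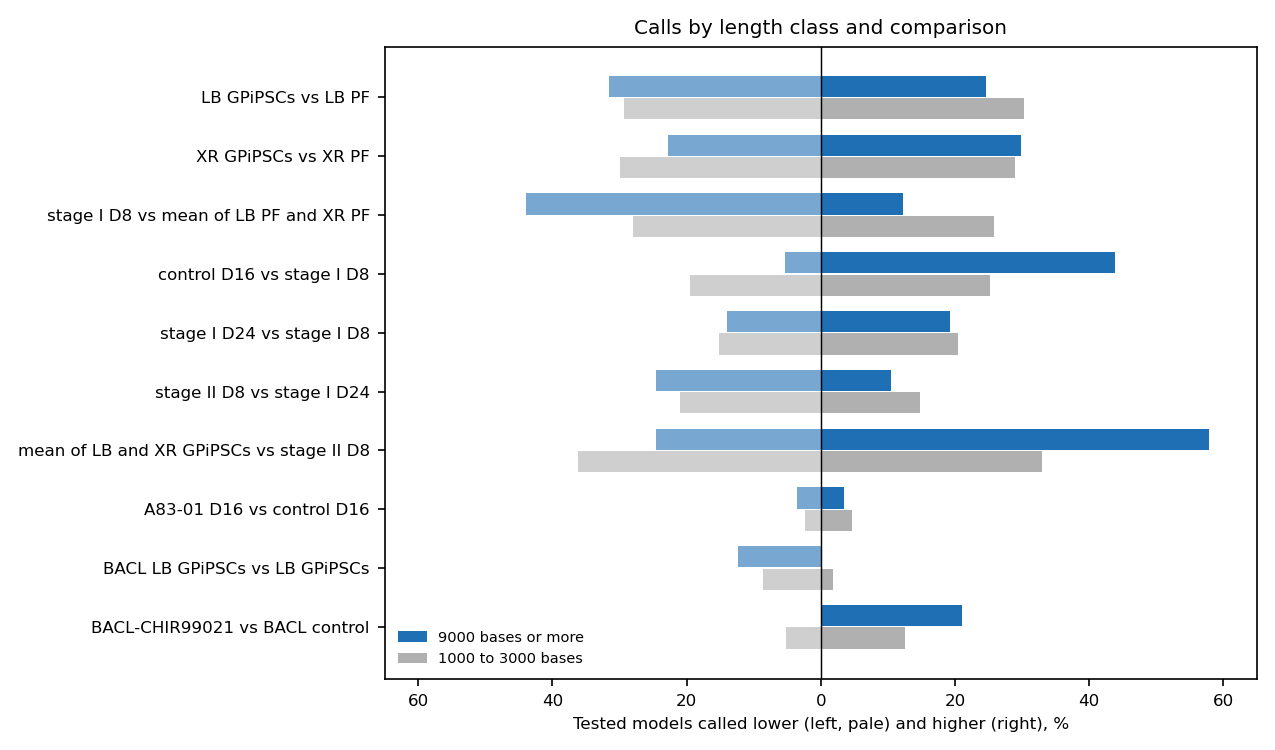
Percent of tested models that rose (right) and fell (left, pale) in each of 10 comparisons, for models of 9000 bases or more and of 1000 to 3000 bases, by edgeR at an adjusted p under 0.05. Among the comparisons shown, 43.9% of long models were lower in stage I D8 than in PF, 43.9% higher in control D16 than in stage I D8 and 57.9% higher in GPiPSCs than in stage II D8, against 27.9%, 25.3% and 32.9% of models of 1000 to 3000 bases.

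A83-01 D16 against control D16 changed few models of either class. Of the 57 tested long models 2 rose and 2 fell (3.51% each), where 4.19% and 2.04% of all tested models did. Both A83-01 D16 libraries exceeded both control D16 libraries in 11 long models and lay below them in 17, 19.3% and 29.8%, against 30.4% and 25.8% of all tested. The median change was -0.06 for long models, 0.03 for models of 1000 to 3000 bases and 0.04 for all. The difference in medians of -0.09 was -0.54 without A83-01 D16 replicate 1 and 0.15 without replicate 2. The model evm.model.HIC_ASM_7.1715 had 88.6 and 39.97 CPM in A83-01 D16, against 19.8 and 14.4 CPM in control D16, a log2 fold change of 1.91 ± 0.43 (adjusted p = 0.0102). Its adjusted p was 0.269 without A83-01 D16 replicate 1, and 0.0632 and 0.177 without control D16 replicates 1 and 2. The model evm.model.HIC_ASM_11.829 had 23.9 and 9.64 CPM in A83-01 D16, against 0.185 and 0.0944 CPM in control D16 (adjusted p = 5.93e-06). With 2 and 1 counts in the control libraries it falls outside the rule for named models and was chosen after its values were seen. The models that fell were evm.model.HIC_ASM_2.1220, with 19 and 0 counts in A83-01 D16, against 6.49 and 6.80 CPM in control D16 (adjusted p = 0.0110), and evm.model.HIC_ASM_18.262 (9573 bases), with 2.99 and 2.55 CPM in A83-01 D16, against 7.41 and 8.78 CPM in control D16, a log2 fold change of -1.54 ± 0.41 (adjusted p = 0.0264). They were likewise chosen after their values were seen. The share of higher calls was 33.3% on log2(TPM + 1) against 50%. Leaving out control D16 replicate 1 or 2 left 1 call, and leaving out A83-01 D16 replicate 1 left 2. Without A83-01 D16 replicate 2, 4 models rose, and neither of the falls was called.

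BACL LB GPiPSCs against LB GPiPSCs gave 7 long models that fell and 0 that rose (12.3% and 0%), where 7.7% and 1.79% of all tested models did, 9.5% together. Both BACL LB GPiPSC libraries lay below all 3 LB GPiPSC libraries in 24 long models and above them in 6, 42.1% and 10.5%, against 25.9% and 22.9% of all tested. By edgeR's quasi-likelihood test 0 rose at an unadjusted p under 0.05 too, and DESeq2 called 0 higher. The median change was -0.18, against -0.08 for models of 1000 to 3000 bases and -0.06 for all. The model evm.model.HIC_ASM_2.924 had 0.935 and 0.941 CPM in BACL LB GPiPSCs, against 5.96, 54.2 and 88.0 CPM in LB GPiPSCs, a log2 fold change of -5.70 ± 0.82 (adjusted p = 0.000188). The model evm.model.HIC_ASM_1.321 (13526 bases) had 2.37 and 1.68 CPM in BACL LB GPiPSCs, against 18.3, 22.5 and 50.5 CPM in LB GPiPSCs, a log2 fold change of -3.90 ± 0.51 (adjusted p = 7.32e-05). Without LB GPiPSCs replicate 3 these were -4.96 and -3.31. Without BACL LB GPiPSCs replicate 1 or 2, 3 and 2 models were called.

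BACL-CHIR99021 against BACL control gave 12 long models that rose and 0 that fell (21.1% and 0%), where 11.7% and 4.43% of all tested models did. By edgeR's quasi-likelihood test 0 fell at an unadjusted p under 0.05 too, and DESeq2 called 0 lower. Long models had a median of 0.25, against 0.00 for models of 1000 to 3000 bases and for all. Both BACL-CHIR99021 libraries exceeded both BACL control libraries in 34 long models and lay below them in 17, 59.6% and 29.8%, against 40% and 38.9% of all tested. With the length trend removed, 11 rose and 2 fell, 84.6% higher against 100%. A fit to these 4 libraries alone called 30 higher and 12 lower, so the count of 0 falls did not hold in it. The share of all tested models called in that fit is not given here, so its counts cannot be set against one.

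The model evm.model.HIC_ASM_15.1231 had 112 and 101 CPM in BACL-CHIR99021, against 3.42 and 3.10 CPM in BACL control, a log2 fold change of 5.02 ± 0.68 (adjusted p = 3.71e-05). The model evm.model.HIC_ASM_1.321 had 69.2 and 66.0 CPM in BACL-CHIR99021, against 4.48 and 4.47 CPM in BACL control, a log2 fold change of 3.91 ± 0.51 (adjusted p = 2.19e-05). The replicates of both groups lay close together in both models. These models were on opposite sides in the comparison with fibroblasts, since the first fell and the second rose in both LB and XR GPiPSCs. Of the 12 that rose with CHIR99021, 7 were among the 18 that fell in LB GPiPSCs against LB PF and 4 among the 14 that rose there. Against the XR comparison, 6 were among the 13 that fell and 5 among the 17 that rose. As shares of the 12 these are 58.3%, 33.3%, 50% and 41.7%, where 50.3%, 24%, 52% and 22.8% of all models that rose with CHIR99021 were in the same lists.

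Within the set, the signed change was set against length and level. Over the 57 tested models, the Spearman correlation of log2 fold change with length lay between -0.23 (stage I D24 against stage I D8) and 0.08 (stage I D8 against PF) in the 10 comparisons. With mean log2 CPM it lay between -0.33 (stage I D24 against stage I D8) and 0.44 (stage II D8 against stage I D24). The points share the libraries of each comparison, and these values are descriptions.

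Some of the named calls were not made by other fits. On log2(TPM + 1), limma-trend gave an adjusted p of 0.0877 for evm.model.HIC_ASM_16.944 in stage I D8, 0.134 for evm.model.HIC_ASM_11.645 in stage I D24, 0.0667 for evm.model.HIC_ASM_13.1263 in stage II D8, 0.116 for evm.model.HIC_ASM_5.1108 in GPiPSCs against stage II D8 and 0.144 for evm.model.HIC_ASM_7.1715 with A83-01. For evm.model.HIC_ASM_10.1275 in stage I D24 and evm.model.HIC_ASM_10.1330 in stage II D8 it gave 0.0802 and 0.116, and an edgeR fit to only the libraries compared gave 0.0659 and 0.104. The LB minus XR difference had an adjusted p of 0.0881 and 0.169 in these fits for evm.model.HIC_ASM_15.1231, and 0.0839 and 0.191 for evm.model.HIC_ASM_6.921. On log2(TPM + 0.1) the adjusted p of evm.model.HIC_ASM_3.538 in control D16 was 0.0627. All these values kept their direction, which the choice of these models made likely.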

How the data were processed

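Per the labels' protocols, total RNA came from column extraction and 2 μg of it went into each NEBNext Ultra library. The submitters' processing notes name kallisto. The sources used here do not give its version, its index or a genome build. The deposited tables hold, per the file headers, an estimated count and a TPM for each of 22924 models in each of 25 libraries, next to nominal and effective lengths. The deposited estimated counts were rounded to whole numbers. The deposited TPM values are scaled by the authors' tool to effective length and library total. Effective length exceeded length in 10 to 20 long models per library. Reads of near-identical copies cannot be told apart.

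All 25 libraries entered 1 fit of 12 groups (filterByExpr, TMM, edgeR 4.0.16 in R 4.3.3, robust quasi-likelihood F test), adjusted by Benjamini-Hochberg over 17225 models and called at 0.05. The step was tested on simulated counts, which held no difference between replicates graded by length, so that test does not cover such differences. The SE comes from the F statistic. A floor of 3 counts equals 0.176 to 0.376 CPM. No fold is printed where a library of the groups compared has 3 counts or fewer. Intervals cover counting error only.

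The members and lists were chosen with earlier results of these data known. Named models are, per comparison and direction, the 2 called ones with the largest change whose libraries do not overlap, whose higher groups average 10 CPM or more and whose lower groups sum to 10 counts or more (for LB minus XR only a group mean of 10 CPM or more). They also include the 5 longest, the 5 with the highest TPM, the 3 steadiest and 3 most variable, and the 2 on either side of the length threshold. No listed gene symbol matched a model. Alternatives were RLE, DESeq2 1.42.0, fits without the filter or to the compared libraries alone, a replicate block, limma-trend (limma 3.58.1) on log2(TPM + 1) and log2(TPM + 0.1), other length thresholds, removal of the length trend, and leaving out each library. A group thereby left with 1 library takes the spread of the others.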

Additional observations from a re-analysis of the deposited data

Results flagged for a closer look

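In a test of the difference itself, 3 long models changed differently between LB GPiPSCs and LB PF than between XR GPiPSCs and XR PF. These are 5.26% of the 57 tested, against 8.64% of all tested models, so the share was no higher among long models. With 1 library left out edgeR called 0 to 19. In evm.model.HIC_ASM_15.1231 the LB change was below the XR change by a log2 value of -3.16. It had 1.49, 8.09 and 15.4 CPM in LB GPiPSCs and 48.4 and 43.0 CPM in XR GPiPSCs, against 8565 and 14365 CPM in LB PF and 9094 and 4928 CPM in XR PF. In evm.model.HIC_ASM_6.921 the difference was -1.46, from 16.3, 21.9 and 21.1 CPM in LB GPiPSCs and 27.7 and 27.7 CPM in XR GPiPSCs, against 55.2 and 56.3 CPM in LB PF and 37.6 and 19 CPM in XR PF. The third had 3 counts or fewer in an XR PF library and is not named. XR PF replicate 2, which was low in most long models, enters each of these differences.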

How the results depend on the processing

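Counts of long models called stayed within 1.5 times under RLE, no filter and the replicate block. Replicate numbers share only a label. Over 32 pairs of same-numbered libraries, deviations from group means correlated between -0.54 and 0.56, 6 above 0.1 and 7 below -0.1. In a group of 2 libraries these deviations mirror each other. Where both groups have 2 libraries, replicates 1 and 2 therefore give the same value, so most of the 32 values are repeats. With a replicate block 34 (LB), 30 (XR), 32 (stage I D8), 28 (control D16), 18 (stage I D24), 21 (stage II D8), 46 (GPiPSCs against stage II D8), 4 (A83-01), 6 (BACL LB), 12 (BACL-CHIR99021) and 4 (LB minus XR) models were called, against 32, 30, 32, 28, 19, 20, 47, 4, 7, 12 and 3 without it.

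Counts moved further in these cases, and the cause was not tested. Shares over all tested models are given for the main fit only, so counts from other fits have no such share beside them. With limma-trend, log2(TPM + 1) and then log2(TPM + 0.1) called 5 and 10 for stage I D24, 6 and 6 for stage II D8, 3 and 3 for BACL LB and 1 and 1 for LB minus XR. Fits to only the libraries compared called 8 for stage I D24, 9 for stage II D8, 13 for A83-01, 42 for BACL-CHIR99021 and 0 for LB minus XR. DESeq2 called 7 and removal of the length trend 9 for LB minus XR. LB PF had 4.77 times the long-model share of stage II D8, and 4.60 to 4.94 times with 1 library left out. Without the 10 models with the most counts in each library it was 2.19 times. These groups had the highest and lowest mean share, so the ratio is between extremes picked from the same values. Without evm.model.HIC_ASM_15.1231 the means were 0.923% and 0.395%, and with TMM-scaled totals 2.08% and 0.604%.

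Leaving out each library in turn gave 28 to 34 calls (LB), 26 to 39 (XR), 19 to 35 (stage I D8), 9 to 25 (control D16), 12 to 15 (stage I D24), 7 to 27 (stage II D8), 37 to 47 (GPiPSCs against stage II D8), 1 to 4 (A83-01), 2 to 6 (BACL LB), 9 to 10 (BACL-CHIR99021) and 0 to 19 (LB minus XR). Of 456 alternative values for 35 named fold changes, 423 kept their direction and call, 33 kept the direction only and 0 reversed. The named models were chosen from the same data by their calls, and most for libraries that did not overlap. Reversal was therefore unlikely from the outset, and its absence is no sign of stability. The small number of libraries, 2 in most groups, and the within-group SD of the long-model shift, 0.304, limit which differences between groups can be shown. Removal of the length trend was chosen after seeing the data.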
